A study of Mus musculus with 6 samples.

Results

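The transcripts of 10 genes for heterogeneous nuclear ribonucleoproteins (hnRNPs) were followed through an RNA immunoprecipitation (IP) experiment in mouse germ cells made in culture. The genes were Hnrnpa1, Hnrnpa2b1, Hnrnpc, Hnrnpd, Hnrnpf, Hnrnph1, Hnrnpk, Hnrnpl, Hnrnpm and Hnrnpu. Every non-control array probe whose gene name was one of these, or the older spelling with Hnrp, was taken, which gave 20 of 41174 probes, for 10 of 27961 gene names on the array. Hnrnpa1 had 4 probes, Hnrnpk had 3, and Hnrnpa2b1, Hnrnpc, Hnrnpd, Hnrnpf and Hnrnpu had 2 each, while Hnrnph1, Hnrnpl and Hnrnpm had 1. All 20 entered the tests, and 19 of them stood well above background on every array. The exception was the Hnrnpa1 probe A_52_P637440, which was well above background on the 4 IP arrays and on neither input array.

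The cells were primordial germ cells made in vitro from Dazl-GFP-V5 embryonic stem (ES) cells, which derive from the V6.5 line and have a C57BL/6 129SV mixed background. All 3 groups came from these cells after 12 days in Differentiation Medium, so the controls carried the tagged Dazl too. DAZL is a germ line protein that binds mRNA. After ultraviolet (UV) crosslinking of protein to RNA, 1 group was precipitated with anti-GFP, which takes the tagged DAZL. Another was precipitated with anti-PABP1, an antibody to the poly(A)-binding protein that sits on mRNA tails in general, and the third was total input RNA with no antibody. Each group had 2 arrays, and no IP from cells without the tag is among the groups analysed here. Nothing in the labels says that the replicates were separate cultures. The p-values therefore cover no more than the spread of these arrays, which may be technical. The labels also do not say whether the ES cells were 1 clone.

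HnRNPs coat newly made transcripts in the nucleus and act in splicing, 3′ end processing, export, stability and translation. Many of their own mRNAs are controlled after transcription, by alternative or poison exons and by binding of the hnRNPs themselves. The family has several branches. Hnrnpc encodes a core protein that binds uridine tracts. Hnrnpf and Hnrnph1 encode proteins that bind runs of G. Hnrnpk encodes a KH-domain protein that binds C-rich RNA, Hnrnpl one that binds CA repeats, and Hnrnpm a splicing regulator. Hnrnpa1 and Hnrnpa2b1 encode abundant splicing repressors, Hnrnpd encodes AUF1, which binds AU-rich elements, and Hnrnpu encodes a nuclear scaffold protein. The values here are levels of the mRNAs of these genes in each RNA sample, not of the proteins or of what they bind.

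Between 41.5% and 52.6% of the 43379 non-control spots of an array were well above background, with 0 saturated spots. The processed signal is the background-subtracted spot brightness, and its 75th percentile was 63.5 and 75.3 for input, 105 and 146 for the PABP1 IP, and 158 and 163 for the GFP IP. Signals were therefore divided by that percentile before groups were compared, and these quotients are called relative signals below. Processed signals themselves are given for each array in the order of replicates 1 and 2. Replicate arrays correlated at 0.991 (input), 0.981 (PABP1) and 0.98 (GFP) across probes, which are not independent replicates. Both input arrays, PABP1 replicate 1 and GFP replicate 2 shared slide 1, while GFP replicate 1 and PABP1 replicate 2 shared slide 2. The number of arrays limits the precision.

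Germ cell markers were present, but not all of them. Of 13 primordial germ cell genes on the array, 11 were well above background in both input arrays, among them Dppa3, Pou5f1, Nanog and Kit. Ddx4, a later germ cell marker, was above background on no group's full pair of arrays. Of the Dazl probes, A_52_P271166 read 54.1 and 58.6 in input, 24.2 and 34.3 in the PABP1 IP, and 1380 and 2340 in the GFP IP, so the GFP IP held the transcript of the tagged gene at the highest level on both arrays. Markers of other cells were present as well, with 8 of 9 cardiac and smooth muscle genes, 5 of 6 fibroblast genes, 4 of 6 neural genes, 1 of 6 endothelial and blood genes and 1 of 8 visceral endoderm genes well above background in both inputs. The endoderm markers Afp, Ttr and Apoa1, the endothelial markers Cdh5 and Kdr, and the heart marker Myh6 were likewise above background on no full pair. The labels do not say that cells were sorted before lysis.

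Set against input, the GFP IP held higher relative levels of the Hnrnpc, Hnrnpf, Hnrnph1 and Hnrnpm mRNAs by every probe, and of Hnrnpk by 2 of 3 probes. It held lower levels of Hnrnpa1 by 2 of 4 probes, and of Hnrnpa2b1 and Hnrnpu by 1 of 2, although with spike-in scaling 0 of these passed as lower. In all, 8 of the 20 probes were higher (20.7 percent of the 21051 probes tested were called higher), 4 were lower (32.5 percent of all probes) and 8 did not pass limma's test at an adjusted p of 0.05. The median log2 difference of the 20 probes was 0.99, against -0.38 for all probes, and 16 of the 20 lay above that median. With the arrays scaled to spike-in controls in place of the 75th percentile, 12 probes were higher and 0 were lower, where 25.9 and 2.13 percent of all probes were. On that scale the adjusted p followed the size of a difference and not the spread of the probe. Hnrnpa2b1 A_51_P419981 (main SE 0.97) gave 2.38 there with adjusted p = 0.00046. Hnrnpk A_52_P401423 (main SE 0.47) gave 2.35 with adjusted p = 0.000564. Without GFP replicate 1 the median of the 20 probes was 0.29 and that of all probes -0.33, and with the slide as a block they were 0.37 and -0.33.

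**Figure D1:**
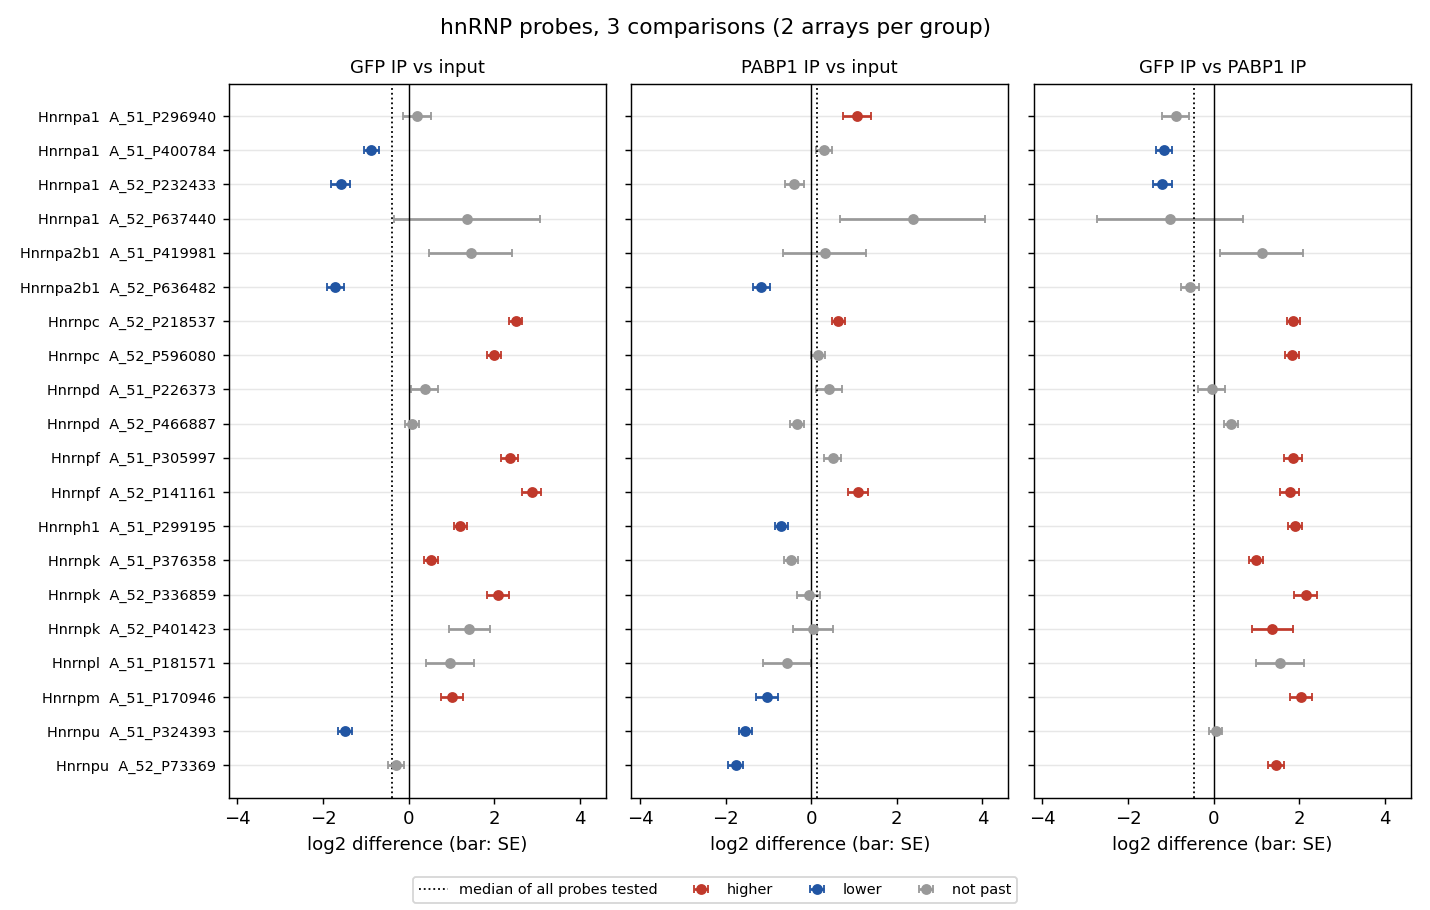
Log2 differences (horizontal axis) of the 20 hnRNP probes for GFP IP against input (left), PABP1 IP against input (middle) and the 2 IPs against each other (right). Points are differences of group means of 2 arrays, bars are limma standard errors, colours give the call at an adjusted p of 0.05, and the dotted line is the median of all probes tested. The Hnrnpc, Hnrnpf, Hnrnph1 and Hnrnpm points lie right of 0 in the GFP IP against input. In the GFP IP against the PABP1 IP 10 points are called higher (24.4 percent of all probes tested). That count falls to 0 with spike-in scaling (4.33 percent).

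The Hnrnpc mRNA was higher in the GFP IP by both of its probes. Probe A_52_P218537 read a processed signal of 231 and 285 in input, 623 and 821 in the PABP1 IP, and 3390 and 3330 in the GFP IP. Its relative signal was 3.64 and 3.78 in input, 5.93 and 5.62 in the PABP1 IP, and 21.5 and 20.4 in the GFP IP, so the 3 groups did not overlap. Against input, the GFP IP was 5.64-fold higher (log2 difference 2.50 ± 0.15 SE, 2 arrays per group, adjusted p = 0.00147). The other probe, A_52_P596080, read 35.8 and 41.2 in input, 70.9 and 83.8 in the PABP1 IP, and 338 and 371 in the GFP IP. It gave the same order, with a GFP difference of 1.99 ± 0.17 (adjusted p = 0.00172).

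In the PABP1 IP, Hnrnpc stood closer to input. A_52_P218537 differed from input by 0.64 ± 0.15 (adjusted p = 0.0187) and A_52_P596080 by 0.16 ± 0.17 (adjusted p = 0.452). The call of the first was lost without any single input or PABP1 array (0.60 to 0.68, adjusted p from 0.0505 to 0.111), without a filter on dim probes (adjusted p = 0.109) and after cyclic loess (0.37, adjusted p = 0.0747). Directly against the PABP1 IP, the GFP IP was higher by 1.86 ± 0.15 (adjusted p = 0.000622) and 1.83 ± 0.17 (adjusted p = 0.000771). With spike-in scaling these became 0.56 and 0.53 and did not pass.

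Hnrnpf, whose protein binds G runs and regulates splicing and polyadenylation, gave the largest difference from input among the 20 probes. Probe A_52_P141161 read 27.5 and 40.8 in input, 102 and 161 in the PABP1 IP, and 644 and 507 in the GFP IP. This made a 7.35-fold rise over input in the GFP IP (2.88 ± 0.22, adjusted p = 0.00157). Probe A_51_P305997 read 4680 and 5430 in input, 10400 and 15800 in the PABP1 IP, and 68300 and 52800 in the GFP IP, a difference of 2.36 ± 0.20 (adjusted p = 0.00172). Both probes put the groups in the order GFP IP, PABP1 IP, input, with no overlap between arrays.

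Hnrnpf also rose in the PABP1 IP, by 1 of its 2 probes. A_52_P141161 was 2.14-fold over input there (1.10 ± 0.22, adjusted p = 0.0105), a call lost without input replicate 1 (0.93, adjusted p = 0.0679) and smaller with the normexp background correction (0.52, adjusted p = 0.0361). A_51_P305997 gave 0.51 ± 0.20 (adjusted p = 0.083). GFP IP against PABP1 IP gave 1.78 ± 0.22 (adjusted p = 0.0017) and 1.85 ± 0.20 (adjusted p = 0.00112), which fell to 0.49 and 0.56 with spike-in scaling and then did not pass.

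Hnrnph1, a close relative of Hnrnpf that also binds G runs, rose in the GFP IP and fell in the PABP1 IP, although with spike-in scaling both IPs were above input. Its probe A_51_P299195 read 509 and 559 in input, 498 and 701 in the PABP1 IP, and 2980 and 2750 in the GFP IP. In relative signal it was at 8.02 and 7.42 in input, 4.74 and 4.80 in the PABP1 IP, and 18.9 and 16.9 in the GFP IP. The GFP IP was 2.31-fold over input (1.21 ± 0.16, adjusted p = 0.00361), and the PABP1 IP was 1.62-fold under it (-0.69 ± 0.16, adjusted p = 0.0165). The lower call in the PABP1 IP was lost without any single input or PABP1 array (-0.64 to -0.75, adjusted p from 0.0538 to 0.106), and with spike-in scaling the sign turned (1.54, adjusted p = 0.012). It was also lost with the normexp correction (-0.26, adjusted p = 0.235), with the all-probe median as the scale (-0.51, adjusted p = 0.179) and without a filter (adjusted p = 0.0987). Between the IPs the difference was 1.90 ± 0.16 (adjusted p = 0.000652), and 0.60 (adjusted p = 0.362) with spike-in scaling.

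Hnrnpk was read by 3 probes, of which 2 passed as above input in the GFP IP. Probe A_52_P336859 read 569 and 815 in input, 843 and 1620 in the PABP1 IP, and 7770 and 5830 in the GFP IP. It was 4.26-fold higher in the GFP IP (2.09 ± 0.26, adjusted p = 0.00317), at -0.061 ± 0.26 in the PABP1 IP against input (adjusted p = 0.863), and 2.15 ± 0.26 higher in the GFP IP than in the PABP1 IP (adjusted p = 0.0016, and 0.85 with adjusted p = 0.19 under spike-in scaling). A second probe, A_51_P376358, read 27500 and 29000 in input, 32700 and 40900 in the PABP1 IP, and 90300 and 97400 in the GFP IP, with 0 saturated spots. Relative to the percentile it stood at 433 and 385 in input, 311 and 280 in the PABP1 IP, and 572 and 598 in the GFP IP, so its groups also stood apart, by a smaller margin.

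For this second probe the GFP IP was 1.43-fold over input (0.52 ± 0.17, adjusted p = 0.0471). The call was lost in 11 of 18 alternatives, among them leaving out any 1 of the 6 arrays (0.43 to 0.60, adjusted p from 0.0593 to 0.219), while normexp, quantile, cyclic loess and median scaling gave 1.15, 1.30, 1.45 and 1.11. Against the PABP1 IP it was 0.98 ± 0.17 higher (adjusted p = 0.00466), which spike-in scaling turned to -0.31 (adjusted p = 0.646) and quantile and cyclic loess normalization raised to 2.45 and 2.57. The third probe, A_52_P401423, read 38.0 and 48.1 in input, 47.3 and 131 in the PABP1 IP, and 378 and 185 in the GFP IP. It gave 1.41 ± 0.47 against input (adjusted p = 0.0525), which became 0.90 and passed under a slide block (adjusted p = 0.00781), and 1.37 ± 0.47 against the PABP1 IP (adjusted p = 0.0499). That second call was lost without PABP1 replicate 1 (0.88, adjusted p = 0.197) and without GFP replicate 1 (0.84, adjusted p = 0.188). It was also lost without input replicate 1 or input replicate 2 (adjusted p = 0.0822 each) and under 5 further alternatives.

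Hnrnpm, a splicing regulator, rose in the GFP IP and fell in the PABP1 IP, although with spike-in scaling both IPs were above input. Probe A_51_P170946 read 3560 and 4040 in input, 2630 and 4220 in the PABP1 IP, and 21900 and 14300 in the GFP IP. Relative to the percentile this was 56.1 and 53.7 in input, 25.05 and 28.9 in the PABP1 IP, and 139 and 87.7 in the GFP IP, with no overlap between groups. The GFP IP was 2.01-fold over input (1.01 ± 0.26, adjusted p = 0.0245), a call lost without GFP replicate 1 (0.68, adjusted p = 0.0753), input replicate 1 (1.04, adjusted p = 0.098) or input replicate 2 (0.98, adjusted p = 0.104). The PABP1 IP was 2.04-fold under input (-1.03 ± 0.26, adjusted p = 0.0216). That call was lost without any single input or PABP1 array (-0.92 to -1.13, adjusted p from 0.0533 to 0.0976), and spike-in scaling gave 1.21 (adjusted p = 0.0492). It was lost too with normexp (-0.59, adjusted p = 0.0802), with the all-probe median as the scale (-0.85, adjusted p = 0.125) and without a filter (adjusted p = 0.069). Between the IPs the GFP IP was 4.10-fold higher (2.04 ± 0.26, adjusted p = 0.00182), and it fell to 0.74 (adjusted p = 0.262) with spike-in scaling.

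Hnrnpl, which encodes the CA-repeat binder, passed in no comparison and differed between slides. Probe A_51_P181571 read 787 and 776 in input, 613 and 1450 in the PABP1 IP, and 6010 and 2110 in the GFP IP. Both GFP arrays lay above both input arrays on the relative scale, at 38.0 and 12.9 against 12.4 and 10.3, but the GFP arrays differed from each other by 2.94-fold. The difference from input was 0.97 ± 0.56 (adjusted p = 0.188) and that from the PABP1 IP 1.54 ± 0.56 (adjusted p = 0.0571). Within slide 1 the GFP IP was 1.15 above the PABP1 IP (adjusted p = 0.0235), under a slide block it was 1.54 above it (adjusted p = 0.00401), and without GFP replicate 2 it was 1.75 above input (adjusted p = 0.0265). Without GFP replicate 1 it was 0.20 above input (adjusted p = 0.709). Normexp and spike-in scaling put it 1.5 and 1.91 above input (adjusted p = 0.0106 and 0.00645). The PABP1 IP did not pass against input (-0.57 ± 0.56, adjusted p = 0.43), but was lower under a slide block (-1.15, adjusted p = 0.0189) and within slide 1 (-0.95, adjusted p = 0.0288), and higher with spike-in scaling (1.66, adjusted p = 0.00666).

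Hnrnpu, the scaffold attachment factor gene, was lower in the PABP1 IP than in input by both probes, except that spike-in scaling put both above input. A_51_P324393 read 9440 and 10200 in input, 5300 and 6940 in the PABP1 IP, and 7870 and 8360 in the GFP IP. In relative signal this was 149 and 135 in input, 50.5 and 47.5 in the PABP1 IP, and 49.8 and 51.3 in the GFP IP, so the IPs overlapped each other and lay below input. The PABP1 IP was 2.90-fold under input (-1.53 ± 0.16, adjusted p = 0.00144) and the GFP IP 2.81-fold under it (-1.49 ± 0.16, adjusted p = 0.00236). With spike-in scaling these values were 0.70 (adjusted p = 0.257) and -0.55 (adjusted p = 0.557). With normexp, cyclic loess and median scaling the GFP difference was smaller, at -0.83, -0.82 and -0.89, and it still passed.

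The other Hnrnpu probe did not pass in the GFP IP against input. A_52_P73369 read 1570 and 1580 in input, 751 and 914 in the PABP1 IP, and 2750 and 3200 in the GFP IP. Scaled, it was at 24.7 and 21.0 in input, 7.15 and 6.26 in the PABP1 IP, and 17.4 and 19.6 in the GFP IP. The PABP1 IP was 3.40-fold under input (-1.77 ± 0.18, adjusted p = 0.00147, and 0.47 with adjusted p = 0.452 under spike-in scaling). The GFP IP stood at -0.30 ± 0.18 against input (adjusted p = 0.213) and was 2.76-fold over the PABP1 IP (1.47 ± 0.18, adjusted p = 0.00174, and 0.17 with adjusted p = 0.807 under spike-in scaling). The first probe gave 0.045 ± 0.16 for that last comparison (adjusted p = 0.814), so the probes differed by 1.42 on the log2 scale in GFP IP against PABP1 IP.

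Hnrnpa1, which encodes a splicing repressor that also shuttles to the cytoplasm, was lower in the GFP IP than in input and in the PABP1 IP by 2 of its 4 probes, although with spike-in scaling neither passed as lower than input. Probe A_51_P400784 read 5790 and 5990 in input, 12100 and 13900 in the PABP1 IP, and 7620 and 7350 in the GFP IP. In relative signal this was 91.2 and 79.5 in input, 115 and 95.2 in the PABP1 IP, and 48.2 and 45.1 in the GFP IP. Probe A_52_P232433 read 1040 and 1480 in input, 1480 and 1940 in the PABP1 IP, and 798 and 1150 in the GFP IP. On the relative scale both probes put the GFP IP lowest, without overlap.

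The GFP IP was 1.83-fold under input by A_51_P400784 (-0.87 ± 0.18, adjusted p = 0.0136) and 3.01-fold under it by A_52_P232433 (-1.59 ± 0.23, adjusted p = 0.00426). The first call was lost without input replicate 1, input replicate 2 or GFP replicate 2 (-0.77, -0.97 and -0.82, adjusted p = 0.0921, 0.0537 and 0.0534). It was also lost with normexp (-0.29, adjusted p = 0.15), cyclic loess (-0.19, adjusted p = 0.297) and the all-probe median (-0.27, adjusted p = 0.429), and spike-in scaling gave 0.067. The second was lost with spike-in scaling (-0.65, adjusted p = 0.471). Against the PABP1 IP the GFP IP was lower by both, at -1.17 ± 0.18 (adjusted p = 0.0037) and -1.20 ± 0.23 (adjusted p = 0.00688). With spike-in scaling they were -2.46 and -2.49. These calls were lost after cyclic loess (-0.0056, adjusted p = 0.975, and -0.46, adjusted p = 0.17), and the first also after quantile normalization (-0.17, adjusted p = 0.354). The PABP1 IP did not pass against input by either probe (0.30 ± 0.18, adjusted p = 0.226, and -0.39 ± 0.23, adjusted p = 0.2).

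The remaining Hnrnpa1 probes gave other answers against input, but between the IPs all 4 probes lay between -1.20 and -0.89. A_51_P296940 read 70.2 and 86.1 in input, 203 and 424 in the PABP1 IP, and 260 and 163 in the GFP IP. It was above input in the PABP1 IP (1.08 ± 0.32, adjusted p = 0.0365), a call lost under 8 alternatives, among them those without input replicate 1 (1.05, adjusted p = 0.132), input replicate 2 (1.10, adjusted p = 0.122) or PABP1 replicate 2 (0.78, adjusted p = 0.141). It did not pass in the GFP IP against input (0.19 ± 0.32, adjusted p = 0.635) or against the PABP1 IP (-0.89 ± 0.32, adjusted p = 0.058, and adjusted p = 0.00345 under a slide block). A_52_P637440 read 5.72 and 8.52 in input, 12.2 and 342 in the PABP1 IP, and 134 and 12.8 in the GFP IP, so 1 array of each IP was bright and the other dim. Input was not well above background there, and no fold over it is given. On the relative scale the dim GFP array, at 0.0785, lay below both input arrays, at 0.0901 and 0.113, and the dim PABP1 array was at 0.116. The IPs did not pass against input (adjusted p = 0.524 for GFP and 0.289 for PABP1). Between the IPs this probe gave -1.02 ± 1.70 (adjusted p = 0.62), and it passed under a slide block (adjusted p = 0.0223). Spike-in scaling moved it to -2.31 (adjusted p = 0.000254), but that p does not reflect the spread of this probe. Within slides the difference was -1.47 on slide 2 and -0.57 on slide 1.

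Hnrnpa2b1, the close relative of Hnrnpa1, had 1 probe that was lower in both IPs and 1 that passed in no comparison. A_52_P636482 read 1220 and 1280 in input, 885 and 1130 in the PABP1 IP, and 754 and 1040 in the GFP IP. Relative to the percentile it was at 19.2 and 17.0 in input, 8.43 and 7.74 in the PABP1 IP, and 4.77 and 6.38 in the GFP IP, the order input, PABP1 IP, GFP IP without overlap. The GFP IP was 3.28-fold under input (-1.71 ± 0.21, adjusted p = 0.00294) and the PABP1 IP 2.24-fold under it (-1.16 ± 0.21, adjusted p = 0.00691). With spike-in scaling these became -0.78 (adjusted p = 0.369) and 1.07 (adjusted p = 0.081). With normexp they were -1.05 and -0.70, and both still passed. Between the IPs the difference was -0.55 ± 0.21 (adjusted p = 0.0653), and it passed under a slide block (adjusted p = 0.0276).

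The second Hnrnpa2b1 probe, A_51_P419981, read 135 and 166 in input, 128 and 875 in the PABP1 IP, and 1940 and 463 in the GFP IP. The spread within each IP exceeded 4-fold on the relative scale, at 1.22 and 5.99 in the PABP1 IP and 12.3 and 2.84 in the GFP IP, against 2.13 and 2.20 in input. No comparison passed for this probe, with 1.45 ± 0.97 for GFP IP against input (adjusted p = 0.248), 0.32 ± 0.97 for PABP1 IP against input (adjusted p = 0.803) and 1.13 ± 0.97 between the IPs (adjusted p = 0.342). A slide block put the PABP1 IP below input (-0.78, adjusted p = 0.0106), as it was within slide 1 (-0.83). Spike-in scaling put it above input (2.55, adjusted p = 3.38e-05), and the GFP IP too (2.38, adjusted p = 0.00046). Those spike-in p-values do not reflect the spread of this probe. The GFP IP also passed against input with normexp (1.62, adjusted p = 0.0442). Under the slide block it was above the PABP1 IP (1.13, adjusted p = 0.00177, and 1.22 with adjusted p = 0.0138 within slide 1).

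Hnrnpd, the AUF1 gene, passed by neither probe in any of the 3 comparisons. A_52_P466887 read 1200 and 1410 in input, 1680 and 2040 in the PABP1 IP, and 2980 and 3390 in the GFP IP. Its relative signal was 18.9 and 18.7 in input, 16.0 and 14.0 in the PABP1 IP, and 18.9 and 20.8 in the GFP IP. A_51_P226373 read 181 and 197 in input, 296 and 690 in the PABP1 IP, and 662 and 487 in the GFP IP. The differences ran from -0.33 to 0.42 and the adjusted p from 0.0825 to 0.907. With other settings A_52_P466887 rose over input in the GFP IP, after normexp (0.66, adjusted p = 0.0099) or cyclic loess (0.56, adjusted p = 0.0375). It was above the PABP1 IP in the GFP IP under a slide block (0.41, adjusted p = 0.0378) and in 5 other settings, up to 1.24 after cyclic loess (adjusted p = 0.00231). In the PABP1 IP it fell below input after quantile normalization (-0.60, adjusted p = 0.0279) and cyclic loess (-0.69, adjusted p = 0.0173), while spike-in scaling put it above (1.90, adjusted p = 0.00194). Spike-in scaling also put A_51_P226373 above input in the PABP1 IP (2.65, adjusted p = 1.68e-05). On that scale A_51_P226373 was lower in the GFP IP than in the PABP1 IP (-1.34, adjusted p = 0.0358).

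**Figure D2:**
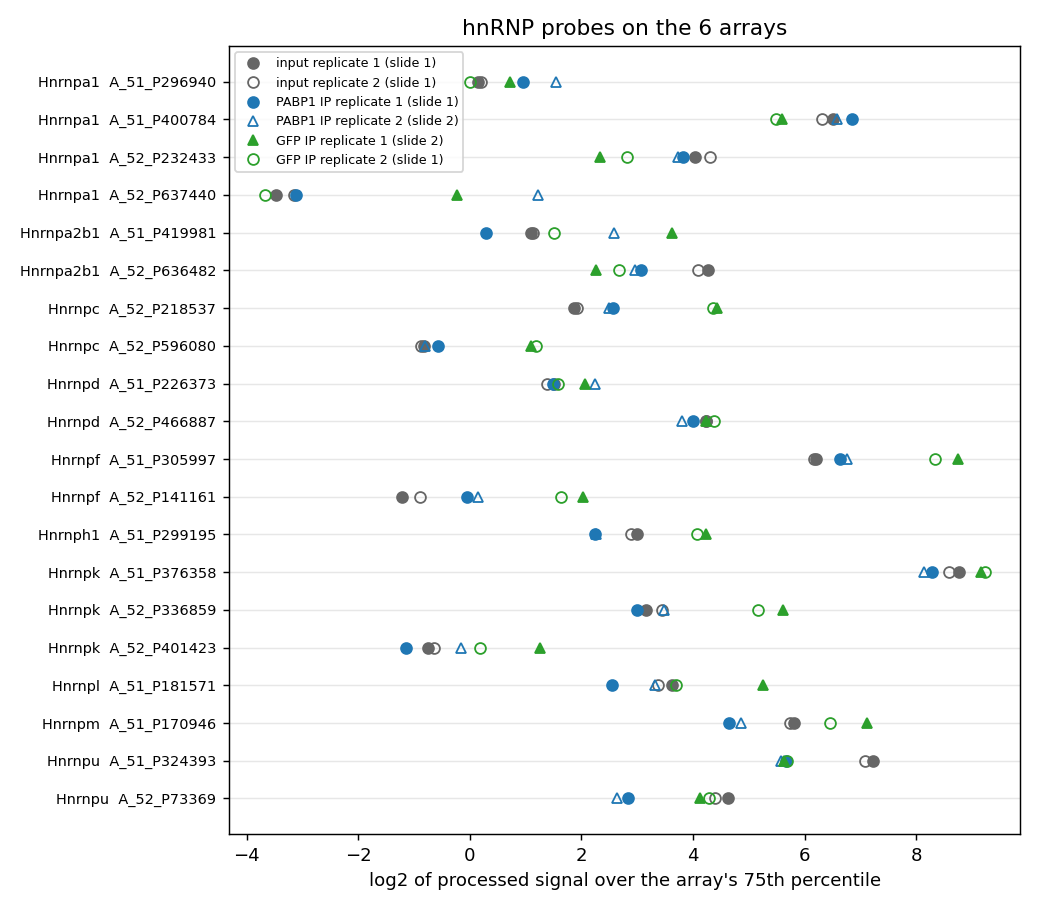
Relative signal (log2 of the processed signal over the array's 75th percentile, horizontal axis) of each hnRNP probe on the 6 arrays. Colours mark the groups, filled and open symbols mark replicates 1 and 2, and circles and triangles mark slides 1 and 2. The GFP symbols lie to the right of the others for Hnrnpc, Hnrnpf, Hnrnph1 and Hnrnpm, and the triangles stand apart from the circles of their group for Hnrnpa1 A_52_P637440 and Hnrnpa2b1 A_51_P419981. Positions are comparable along a row and not between rows.

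Over the 20 probes, calls in the PABP1 IP against input went in both directions, except that spike-in scaling put 17 probes higher and 0 lower. That scale called 81.3 percent of all probes higher and 1.91 percent lower, so the 17 are near the share of all probes. On the main scale the Hnrnpu mRNA was lower by both probes, Hnrnpa2b1 by 1 of 2, and Hnrnph1 and Hnrnpm by their single probes, while 1 probe each of Hnrnpa1, Hnrnpc and Hnrnpf was higher. That made 3 probes higher (30.7 percent of all probes tested), 5 lower (24 percent) and 12 that did not pass. The 5 lower were thus near the share of all probes, and the 3 higher were under it. The median was -0.011 against 0.13 for all probes, and 9 of the 20 lay above that median. The counts of higher and lower probes were 5 and 3 with normexp, 2 and 7 after quantile normalization and 1 and 7 after cyclic loess. The shares of all probes were 26.9 and 23.8, 28.9 and 26.1, and 27.1 and 27.8 percent in that order. Several of these calls were lost when 1 array was left out, as given for each gene above. The median of the 20 probes was then between -0.32 (without PABP1 replicate 2) and 0.10 (without PABP1 replicate 1). The medians of all probes in those fits were 0.24 and 0.057.

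Between the IPs, the GFP IP held more of the Hnrnpc, Hnrnpf, Hnrnph1, Hnrnpk and Hnrnpm mRNAs, although with spike-in scaling 0 hnRNP probes were higher there and 6 were lower (4.33 and 62 percent of all probes). Of the 20 probes, 10 were higher in the GFP IP (24.4 percent of all probes tested), 2 were lower (38.4 percent) and 8 did not pass. The higher probes were all those of Hnrnpc, Hnrnpf, Hnrnph1, Hnrnpk and Hnrnpm and 1 of Hnrnpu, and the lower ones were 2 of the 4 Hnrnpa1 probes. The median was 1.25, against -0.46 for all probes, and 15 of the 20 lay above that median. The lower count was 1 after quantile normalization (30.2 percent of all probes) and 0 after cyclic loess (25.2 percent). Each pair of comparisons shares the arrays of a group, so they are not independent of each other.

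Ranked among all 21051 probes tested, 11 of the 20 hnRNP probes lay in the top 25% of the difference between GFP IP and input and 3 in the bottom 25%. Their median percentile was 82.6. For GFP IP against PABP1 IP 12 lay in the top 25% and 0 in the bottom 25%, and for PABP1 IP against input 3 and 4 did. The order of groups by non-overlapping arrays was GFP IP, PABP1 IP, input for the Hnrnpc and Hnrnpf probes. It was GFP IP, input, PABP1 IP for the probes of Hnrnph1, Hnrnpl and Hnrnpm and for Hnrnpk A_51_P376358. The share of all probes tested with either order was not counted, so whether these orders are a trait of the family was not tested.

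Probes of 1 gene agreed closely for some members and not for others. In GFP IP against input the probes of Hnrnpc lay 0.51 apart on the log2 scale, those of Hnrnpf 0.52 and those of Hnrnpd 0.30. Those of Hnrnpu lay 1.19 apart, of Hnrnpk 1.57, of Hnrnpa1 2.94 and of Hnrnpa2b1 3.16. The Hnrnpa1 span rests on A_52_P637440 (SE 1.70), for which input was not well above background. The Hnrnpa2b1 span rests on A_51_P419981 (SE 0.97), whose arrays differed within each IP. Probe sequences and positions were not used here, so which exon, isoform or related locus each probe reads was not tested. Hnrnpa1 has many processed pseudogenes, and signal shared with such copies cannot be told apart from that of the gene. A gene-level statement for Hnrnpa1, Hnrnpa2b1, Hnrnpk or Hnrnpu therefore holds for the named probe.

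The slide moved with the values of several members. Slide 2 over slide 1 was 10.8-fold in the GFP IP and 20.2-fold in the PABP1 IP for Hnrnpa1 A_52_P637440, and 4.32-fold and 4.92-fold for Hnrnpa2b1 A_51_P419981. Hnrnpl (2.94-fold and 1.70-fold) and Hnrnpk A_52_P401423 (2.11-fold and 1.99-fold) followed. Of the 20 probes, 4 were over 1 log2 unit higher on slide 2 in the GFP IP and 2 in the PABP1 IP, and the same 2 in both. Among all probes tested the shares were 2.46% in the GFP IP, 4.07% in the PABP1 IP and 1.54% in both. The IP arrays of slide 2 carry different replicate numbers, and the input was hybridised on slide 1 alone, so for input the slide has no second value.

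Within each slide the contrast between the IPs could be read directly. GFP IP minus PABP1 IP was 1.93 on slide 2 and 1.78 on slide 1 for Hnrnpc A_52_P218537, and 2.0 and 1.71 for Hnrnpf A_51_P305997. It was 1.97 and 1.83 for Hnrnph1, 2.26 and 1.81 for Hnrnpm, and 2.15 and 2.16 for Hnrnpk A_52_P336859. It was -0.98 and -1.35 for Hnrnpa1 A_51_P400784, and 1.48 and 1.46 for Hnrnpu A_52_P73369. The GFP and PABP1 arrays of these probes did not overlap, so 1 sign on both slides was fixed in advance and adds no support. With the slide as a block, 13 probes were higher and 5 lower between the IPs (28 and 47.3 percent of all probes). The counts were 9 and 4 in GFP IP against input (22.4 and 36.8 percent) and 3 and 8 in PABP1 IP against input (35.8 and 26.5 percent). Slide 1 alone held 1 array in each IP group, which the fit takes to vary like the input pair. The medians of the 20 probes there were 1.18 between the IPs, 0.29 in GFP IP against input and -0.32 in PABP1 IP against input. Those of all probes were -0.47, -0.33 and 0.24.

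**Figure D3:**
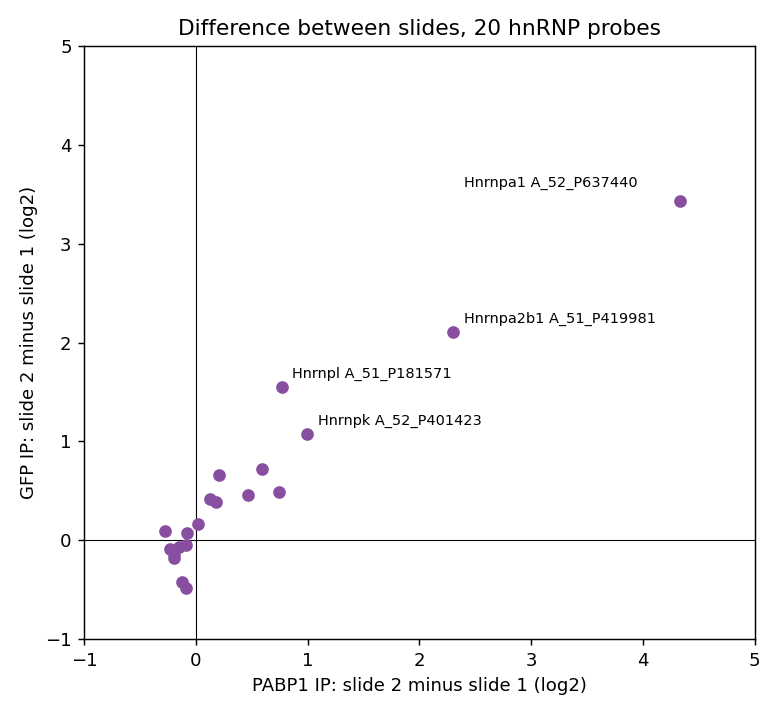
Difference between slides (slide 2 minus slide 1, log2 relative signal) of each of the 20 hnRNP probes in the PABP1 IP (horizontal axis) and the GFP IP (vertical axis), with 1 array per slide and IP. Most points lie within 1 log2 unit of 0, while Hnrnpa1 A_52_P637440 and Hnrnpa2b1 A_51_P419981 lie over 2 units up on both axes.

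The direction of the family in the comparisons with the PABP1 IP changed with the scale chosen for the arrays. The spike-in scale, from 8 control probes, moved the median of all probes to 0.56 in GFP IP against input, 2.36 in PABP1 IP against input and -1.75 in GFP IP against PABP1 IP. The medians of the hnRNP probes became 1.93, 2.22 and -0.047. Over all 21051 probes that scale called 5460 higher and 448 lower in GFP IP against input, 17119 and 402 in PABP1 IP against input, and 912 and 13047 between the IPs. A constant scale cannot move the distance between the members and all probes, which was 1.37, -0.14 and 1.71. After quantile normalization that distance was 1.52, -0.40 and 1.84, after cyclic loess 1.52, -0.30 and 1.82, and with normexp 1.45, 0.22 and 1.39. With the slide as a block it was 0.70, -0.50 and 1.71, and without GFP replicate 1, the slide 2 array, it was 0.62 in GFP IP against input.

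**Figure D4:**
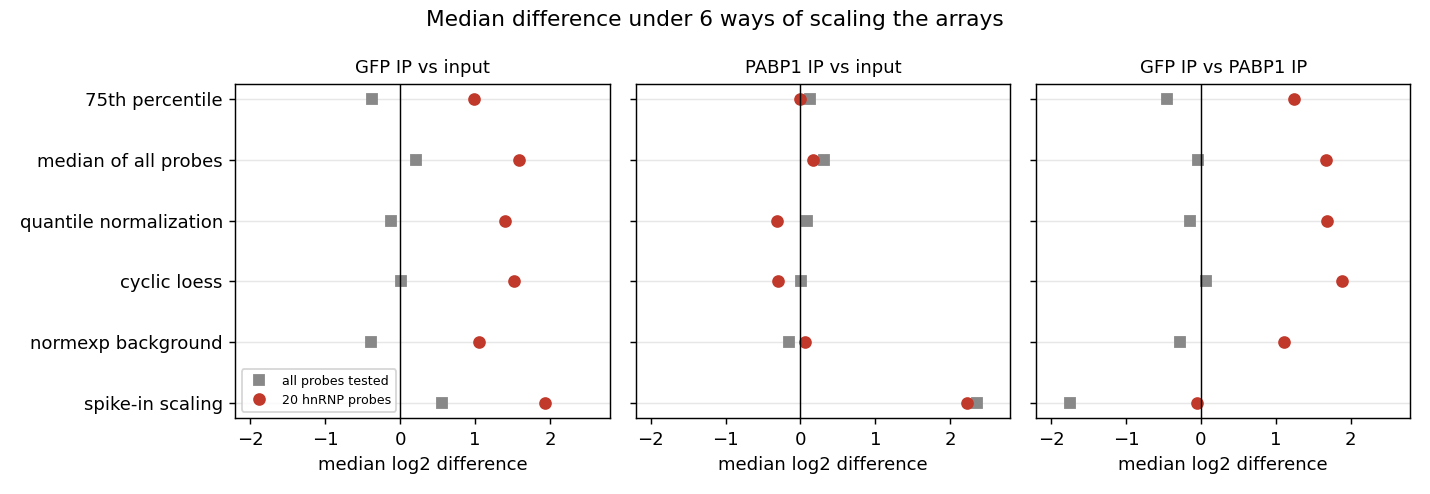
Median log2 difference (horizontal axis) of the 20 hnRNP probes (circles) and of all probes tested (squares) under 6 ways of scaling or background correction, for each comparison. The circles lie right of the squares in GFP IP against input and against PABP1 IP under all 6, while with spike-in scaling the hnRNP median is 2.22 in PABP1 IP against input and -0.047 between the IPs.

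Markers of other cell types differed between the groups as well. In GFP IP against input 0 of 14 tested muscle probes were higher and 9 lower, and 0 of 8 fibroblast probes were higher and 6 lower. Of 14 germ cell probes, 8 were higher and 2 lower. Over all probes tested 20.7 percent were higher and 32.5 percent lower. With spike-in scaling those shares were 25.9 and 2.13 percent, and the markers were not counted on that scale. The summed processed signal of the muscle list was 5399 to 7644 in input, 19015 to 29622 in the PABP1 IP and 5781 to 7154 in the GFP IP. The fibroblast list summed to 5988 to 9651, 12719 to 14946 and 4920 to 9065, and the germ cell list to 8486 to 10075, 33904 to 50146 and 29498 to 30060. The neural list summed to 1276 to 1339 in input, 1518 to 1606 in the PABP1 IP and 2924 to 3141 in the GFP IP, with 1 of 4 probes higher and 1 lower in GFP IP against input. The endoderm list summed to 72.1 to 87.0, 156 to 178 and 157 to 185 (1 of 5 higher, 0 lower), and the endothelial and blood list to 118 to 160, 133 to 167 and 1198 to 1357 (1 of 3 higher, 0 lower). These sums were not scaled for array brightness, and a few bright probes can make up most of a sum. In the GFP IP a Pecam1 probe read 1166 and 1313, and the Tubb3 probe 2237 and 1821. In the PABP1 IP the Pou5f1 probe read 18200 and 29100, and the Ifitm3 probe 11800 and 16000. The sums therefore do not measure the share of a cell type. HnRNPs are made in all these cell types, and the part of such markers in the hnRNP values was not tested. In bulk RNA, fewer cells of a type and less RNA per cell cannot be told apart.

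The wider family was read through 22 further genes for hnRNPs and related proteins, with 44 of their 52 probes tested. In GFP IP against input 17 were higher, 7 lower and 20 did not pass (median 0.32), where 20.7 and 32.5 percent of all probes were higher and lower. In GFP IP against PABP1 IP 23 were higher, 7 lower and 14 did not pass (median 0.87, but -0.43 with 4 higher and 17 lower under spike-in scaling), where 24.4 and 38.4 percent of all probes were called. In PABP1 IP against input 10 were higher, 13 lower and 21 did not pass (median 0.19, but -0.19 after quantile normalization, -0.22 after cyclic loess, and 2.42 with 33 higher and 2 lower under spike-in scaling). The shares of all probes there were 30.7 percent higher and 24 percent lower, near those of the wider family. With spike-in scaling the shares of all probes were 81.3 and 1.91 percent there, and 4.33 and 62 percent between the IPs.

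Highest over input in the GFP IP were Hnrnpll, a splicing regulator related to Hnrnpl (3.01 ± 0.19, adjusted p = 0.00147, with another probe at 1.94), the neural-type polypyrimidine binder Ptbp2 (2.91 ± 0.25, adjusted p = 0.00176) and the poly(C) binder Pcbp1. One probe of Pcbp1 lay at least 3.23-fold over input (adjusted p = 0.0054), although normexp gave 0.17 (adjusted p = 0.483), and another was 2.38 higher. Among the lowest were Rbmx (-2.56 ± 0.20, adjusted p = 0.00159) and Raly, a relative of Hnrnpc (-1.92 ± 0.22, adjusted p = 0.00258). The Raly call was lost with spike-in scaling (-0.98, adjusted p = 0.229).

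In the PABP1 IP, Pcbp2 was higher than input by 2 of 3 probes (2.56 ± 0.18, adjusted p = 0.000904, and 1.87 ± 0.21, adjusted p = 0.00169, with the third at 0.033). A probe of Hnrnpul1 was also higher (1.77 ± 0.17, adjusted p = 0.00122), while others of that gene gave -0.42 and -1.04. Among the lowest there were Rbmx (-3.64 ± 0.20, adjusted p = 0.000852) and Syncrip (-2.31 ± 0.33, adjusted p = 0.00324, and -0.080 with spike-in scaling, with other probes from -1.98 to 0.51). Rbmx was thus lower than input in both IPs by its 1 tested probe.

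Between the IPs, rises in the GFP IP were among the largest for Syncrip (3.82 ± 0.33, adjusted p = 0.00066, with other probes from -0.15 to 2.16) and Tardbp, which encodes TDP-43 (2.85 ± 0.20, adjusted p = 0.000541, with others at 2.56 and -1.0). The largest falls were those of Raly (-2.23 ± 0.22, adjusted p = 0.000846), Hnrnph3 (-2.13 ± 0.22, adjusted p = 0.000974) and a probe of Hnrnpul1 (-1.89 ± 0.17, adjusted p = 0.000683, with others at 0.14 and 0.83).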

How the data were processed

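RNA was measured on 6 one-colour Agilent whole-genome mouse arrays labelled with Cy3, after proteinase K treatment and TRIZOL extraction, per the labels. The deposited scanner output gives each spot's intensity and a background-subtracted processed signal from Feature Extraction 9.1.3.1, per the file headers. The authors also deposited a table of group means and standard errors of signal scaled to each array's median, with a quality score, per the file headers. That score ran from -0.294 to 1.00, and no test used that table.

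Without control and outlier spots, the log2 of the deposited processed signal was averaged over the spots of a probe, and the array's 75th percentile was subtracted. Tests took the 21051 probes that had a value on every array and that 1 or more groups showed well above background on its full pair. Each probe was tested alone with limma 3.58.1 in R 4.3.3 (lmFit, eBayes, 6 arrays, group only, 3 residual degrees of freedom, two-sided), with Benjamini-Hochberg adjustment over all probes and a threshold of 0.05. Values after ± are limma's standard errors. The fit was also run on simulated data whose noise was independent between arrays, so that run does not cover effects of the slide.

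The hnRNP genes, the list of further family members and the marker lists were chosen with earlier results of these data known. All member probes are named. Of the further genes, the 3 largest differences past the threshold in each direction, with arrays that do not overlap, are named per comparison, with their other probes beside them (1 such gene is not reported here), and of the markers, Dazl and the defining ones. Of 20 member probes, 15 had an accession in the RefSeq table, each with the same symbol. Alternatives changed the background correction (normexp with offset 50), the scaling, the filter, the slide, the pairing, the arrays in the fit and the variance model. The main fit did not pair samples by replicate number, and whether the numbers mark pairs cannot be told from these arrays. No genome build is given in the sources used here, so no positions or sequences are printed.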

Additional observations from a re-analysis of the deposited data

How the results depend on the processing

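Over the alternatives, 316 of 359 single-probe values kept their direction and side of the threshold in GFP IP against input, 301 of 359 in PABP1 IP against input and 319 of 379 in GFP IP against PABP1 IP. Both Hnrnpc probes, both Hnrnpf probes, Hnrnph1 and Hnrnpk A_52_P336859 kept their higher call in GFP IP against input under all 18 alternatives run. Where a call changed, the cause was not tested. With spike-in scaling the counts were 0 lower in GFP IP against input (2.13 percent of all probes). They were 17 higher and 0 lower in PABP1 IP against input (81.3 and 1.91 percent), and 0 higher and 6 lower between the IPs (4.33 and 62 percent). Among the other moved counts in PABP1 IP against input were 5 higher and 3 lower with normexp (26.9 and 23.8 percent of all probes) and 1 higher after cyclic loess (27.1 percent). With no filter 1 was higher and 3 lower (11.2 and 10.6 percent). With the median of all probes 3 were lower (17.6 percent), and with the slide as a block 8 were (26.5 percent). The main fit called 30.7 percent of all probes higher and 24 percent lower, so the shares of all probes moved as well. Between the IPs, the 2 lower calls became 1 after quantile normalization, 0 after cyclic loess, 4 for probes well above background on all 6 arrays, 4 with an intensity trend and 5 with the slide as a block. The shares of all probes called lower were 30.2, 25.2, 45.7, 39.5 and 47.3 percent in that order, against 38.4 percent in the main fit. Leaving out 1 array at a time moved the median of the 20 probes from 0.29 to 1.31 in GFP IP against input. It ran from -0.32 to 0.10 in PABP1 IP against input and from 0.80 to 1.58 between the IPs.

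Spike-in scaling turned the sign in PABP1 IP against input of Hnrnpm (1.21), Hnrnpl (1.66), Hnrnph1 (1.54), Hnrnpu A_51_P324393 (0.70) and A_52_P73369 (0.47), Hnrnpk A_51_P376358 (1.77) and A_52_P336859 (2.17), Hnrnpa1 A_52_P232433 (1.84), Hnrnpd A_52_P466887 (1.90) and Hnrnpa2b1 A_52_P636482 (1.07). It also turned Hnrnpa1 A_51_P400784 in GFP IP against input (0.067) and Hnrnpk A_51_P376358 between the IPs (-0.31). In PABP1 IP against input the slide as a block turned Hnrnpa2b1 A_51_P419981 (-0.78, and -0.83 within slide 1) and Hnrnpk A_52_P401423 (-0.48).

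With the replicate number as a block, 7 probes were higher and 4 lower in GFP IP against input (18 and 26.7 percent of all probes). The counts were 2 and 5 in PABP1 IP against input (26.9 and 21 percent) and 9 and 2 between the IPs (22.3 and 34.2 percent). Deviations of same-numbered arrays correlated at 0.154 (input with PABP1 IP), -0.0196 (input with GFP IP) and -0.624 (PABP1 IP with GFP IP). With 2 arrays per group, arrays with different numbers give the same value with the sign turned. Same-numbered IP arrays also lay on different slides, and IP arrays that shared a slide correlated at 0.624. Number and slide therefore cannot be told apart for the IPs, and these values cannot show whether the numbers mark pairs. Crossed pairs of the IP arrays, chosen after seeing the data, gave 12 higher and 5 lower (28.3 and 48.1 percent of all probes). Signal over background limits Hnrnpa1 A_52_P637440, for which input was not well above background.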

Other observations

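The authors' deposited table, whose group means are scaled to each array's median, could be matched by accession to 12 of the 20 hnRNP probes. For a count of directions, the scanner-based differences were also scaled to the median of all probes. The authors' ratio of GFP IP to input then had the direction of the scanner-based difference for 11 of the 12 probes. That of PABP1 IP to input did for 7 and that of GFP IP to PABP1 IP for 10. The main scale can give another direction. Hnrnpu A_52_P73369 was at -0.30 there in GFP IP against input, but at 0.29 on the median scale (authors' ratio 1.31). Hnrnpk A_52_P336859 was at -0.061 in PABP1 IP against input, but at 0.12 on the median scale (authors' ratio 2.63). Across probes, the log2 group means of the authors' deposited table correlated at 0.90 to 0.92 with the scanner-based ones, and probes are not independent replicates.

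Sizes differed between the sources, and so did the scales. The authors' ratios rest on a median scale, while the fold values from the scanner files given here rest on the main scale. With the all-probe median as the scale, the scanner-based median of the 20 hnRNP probes in GFP IP against input was 1.59 in place of 0.99. For Hnrnpa2b1 A_51_P419981 the authors' deposited table gives a GFP IP to input ratio of 118, where the scanner files gave 2.73-fold. For Hnrnpk A_52_P336859 the authors' deposited table gives 15.3 against 4.26-fold, for Hnrnph1 9.33 against 2.31-fold, and for Hnrnpc A_52_P596080 9.67 against 3.97-fold. For Hnrnpc A_52_P218537 it is smaller in the authors' deposited table, 2.70 against 5.64-fold. For Hnrnpa1 A_52_P232433 the authors' deposited table gives a ratio of 4.15, where the scanner files gave a 3.01-fold lower value. The table's values were not rebuilt from the scanner files, so the other steps behind these differences were not tested.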
